A study of Mus musculus with 12 samples.

Results

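A set of 9 genes of FGF-ERK signalling were examined in E14 cells, a mouse embryonic stem (ES) cell line, before and after RA, taken here to be retinoic acid, and with or without knockdown of Loxl2. The set held 9 of the 22180 named genes on the arrays and was chosen by gene name. It comprised the immediate early genes Egr1, Fos and Ier3, the ligand gene Fgf4, the ETS factor genes Etv4 and Etv5, and the inhibitor genes Dusp6, Spry2 and Spry4. The choice started from Egr1, which was lower with RA and lower with knockdown without RA, and the question was whether other targets of ERK followed it. The Egr1 values in those comparisons are therefore a description and carry no test. The other 8 genes were named as pathway members, with earlier results of these data known.

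Cells had been transduced with a control hairpin construct, shCT, or with shLOXL2, directed at the lysyl oxidase LOXL2. Each kind was sampled at day 0 without RA and at day 1 with RA, which gave 4 groups of 3 arrays and 12 arrays in all. All 4 groups thus carry a hairpin construct. Since day 1 was sampled with RA alone, the effects of RA and of the added day cannot be told apart. The labels give neither an RA dose nor whether arrays came from separate cultures. The p-values therefore rest on the spread among these arrays, and that spread may be technical.

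In mouse ES cells, FGF4 made by the cells themselves binds FGF receptors and activates the kinase ERK through RAS, RAF and MEK. ERK signalling prepares ES cells to leave the naive pluripotent state. Active ERK switches on immediate early genes within minutes and, later, genes whose products restrain the pathway. DUSP6 is a phosphatase that removes the activating phosphates from ERK in the cytoplasm, and the Sprouty proteins act on the receptor and RAS side. ETV4 and ETV5 are ETS factors of the PEA3 subfamily and serve as standard transcriptional readouts of FGF signalling.

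Each array gave a log2 signal per transcript cluster, with array medians between 4.58 and 4.68. Each Loxl2 cluster is shared in the annotation with a predicted gene, so neither was tested. The brighter one stood with knockdown at a lower level, 4.94 ± 0.140 (SD, n = 3) against 5.50 ± 0.295 in shCT before RA, and 5.18 ± 0.105 against 6.09 ± 0.368 after it. The dimmer one stood at 4.92 ± 0.344 in shCT against 4.77 ± 0.232 before RA, where the arrays overlapped, and at 5.88 ± 0.349 against 4.80 ± 0.228 after it. The mean of 11 ES cell markers, Fgf4 among them, lay between 9.15 and 9.27 on the arrays without RA and between 8.74 and 8.85 on those with RA. The mean of 10 fibroblast markers, which feeder cells would bring, lay between 4.53 and 4.99, near the array medians, and that of 6 trophectoderm markers between 5.18 and 5.69. Markers of primitive endoderm set 2 arrays apart: shCT replicate 1 was the highest array of its group for all 8 markers, both without RA (mean 7.29, against 6.34 and 6.12) and with RA (7.37, against 6.86 and 6.53). These 2 arrays were also the highest of their groups for 8 and 7 of the 10 fibroblast markers, a list that shares Pdgfra with primitive endoderm. They were the highest for 5 (without RA) and 3 (with RA) of the 6 trophectoderm markers. The shLOXL2 arrays spanned, in primitive endoderm markers, 6.22 to 6.30 without RA and 6.76 to 6.82 with RA. An axis of variation within groups held 49.4% of the within-group variance. On it shCT replicate 1 again had the highest score of its group, without RA (0.504) and with RA (0.153). The marker levels thus differed with RA, and their part in the results was not tested, but values without the arrays that stand apart are given beside the results they touch.

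Promoters are shown first for 4 of the 5 genes called with RA on average, Dusp6, which was higher, and Fgf4, Etv5 and Spry2, which were lower. Each sequence is the 250 bases before the transcription start on the gene's own strand, from RefSeq on the mouse build GRCm38.p6. The table used held windows for 6 of the 9 genes, all but Egr1, Etv4 and Spry4, and for Etv5, with 2 listed starts, the 5′-most is given. Capitals mark matches on either strand to the letters CCAAT (the CAAT box), to the GC box letters GGGCGG or to the PEA3 letters AGGAAG, none of which overlapped another.
Dusp6, chr10:99262981-99263230, plus strand: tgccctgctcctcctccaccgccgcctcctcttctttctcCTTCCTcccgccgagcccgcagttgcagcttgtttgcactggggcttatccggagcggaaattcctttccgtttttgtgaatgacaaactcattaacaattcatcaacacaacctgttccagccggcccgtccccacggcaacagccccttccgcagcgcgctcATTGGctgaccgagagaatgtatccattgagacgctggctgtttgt
Fgf4, chr7:144861136-144861385, plus strand: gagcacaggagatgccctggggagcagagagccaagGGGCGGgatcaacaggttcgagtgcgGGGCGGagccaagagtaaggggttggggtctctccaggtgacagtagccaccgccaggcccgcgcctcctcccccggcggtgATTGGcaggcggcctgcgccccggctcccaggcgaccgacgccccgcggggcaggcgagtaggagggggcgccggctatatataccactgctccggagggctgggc
Etv5, chr16:22439571-22439820, minus strand: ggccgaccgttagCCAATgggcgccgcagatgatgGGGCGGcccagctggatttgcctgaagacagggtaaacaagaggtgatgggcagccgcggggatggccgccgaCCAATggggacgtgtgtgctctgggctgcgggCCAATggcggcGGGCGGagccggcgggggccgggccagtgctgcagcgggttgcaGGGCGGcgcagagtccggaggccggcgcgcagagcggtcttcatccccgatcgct
Spry2, chr14:105896820-105897069, minus strand: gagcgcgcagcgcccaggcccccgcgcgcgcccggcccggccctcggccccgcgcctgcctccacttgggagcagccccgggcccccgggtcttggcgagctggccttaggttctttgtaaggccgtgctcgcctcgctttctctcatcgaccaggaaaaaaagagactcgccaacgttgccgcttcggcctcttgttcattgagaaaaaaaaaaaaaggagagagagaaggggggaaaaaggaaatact

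The Dusp6 window held 1 PEA3 match, 210 to 205 bases before the start, and 1 CCAAT match. The Etv5 window held 3 CCAAT and 3 GC box matches, the Fgf4 window 1 and 2, and the Spry2 window none. Among all 32851 windows of this length, 29.5% held a PEA3 match, 33.8% a CCAAT match and 32.7% a GC box match. The windows of Fos and Ier3, not printed, each held 1 PEA3 match. No match to the ETS letters CCGGAA (12.0% of all windows) or the EGR letters GCGNGGGCG (4.7%) was found in any of the 6 windows. The same held for the retinoid receptor half-site AGGTCA (14%), the cyclic AMP element TGACGTCA (1.55%) and the serum response element (1.47%). These matches are descriptions of letters and not of binding.

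Egr1 encodes a zinc finger factor that ERK induces through serum response elements. Without RA its log2 signal was 7.77, 7.95 and 7.55 in shCT and 6.52, 6.95 and 6.86 in shLOXL2. With RA it was 5.57, 5.76 and 5.59 in shCT and 5.34, 5.60 and 5.54 in shLOXL2. The groups without RA did not overlap each other or the groups with RA, while the groups with RA overlapped. The order of the levels was shCT without RA, shLOXL2 without RA, then both groups with RA. The difference with RA was -2.12 ± 0.15 (SE) on the log2 scale in shCT, a 4.33-fold lower signal, and -1.28 ± 0.15 in shLOXL2, 2.43-fold lower. With knockdown it was -0.98 ± 0.15 without RA, 1.97-fold lower. These values chose the gene. In bulk samples fewer cells that express a gene and less RNA per cell cannot be told apart. Knockdown with RA was not used in the choice: there the Egr1 difference was -0.14 ± 0.15, with a 95% interval from -0.47 to 0.18 and a limma adjusted p of 0.981.

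**Figure D1:**
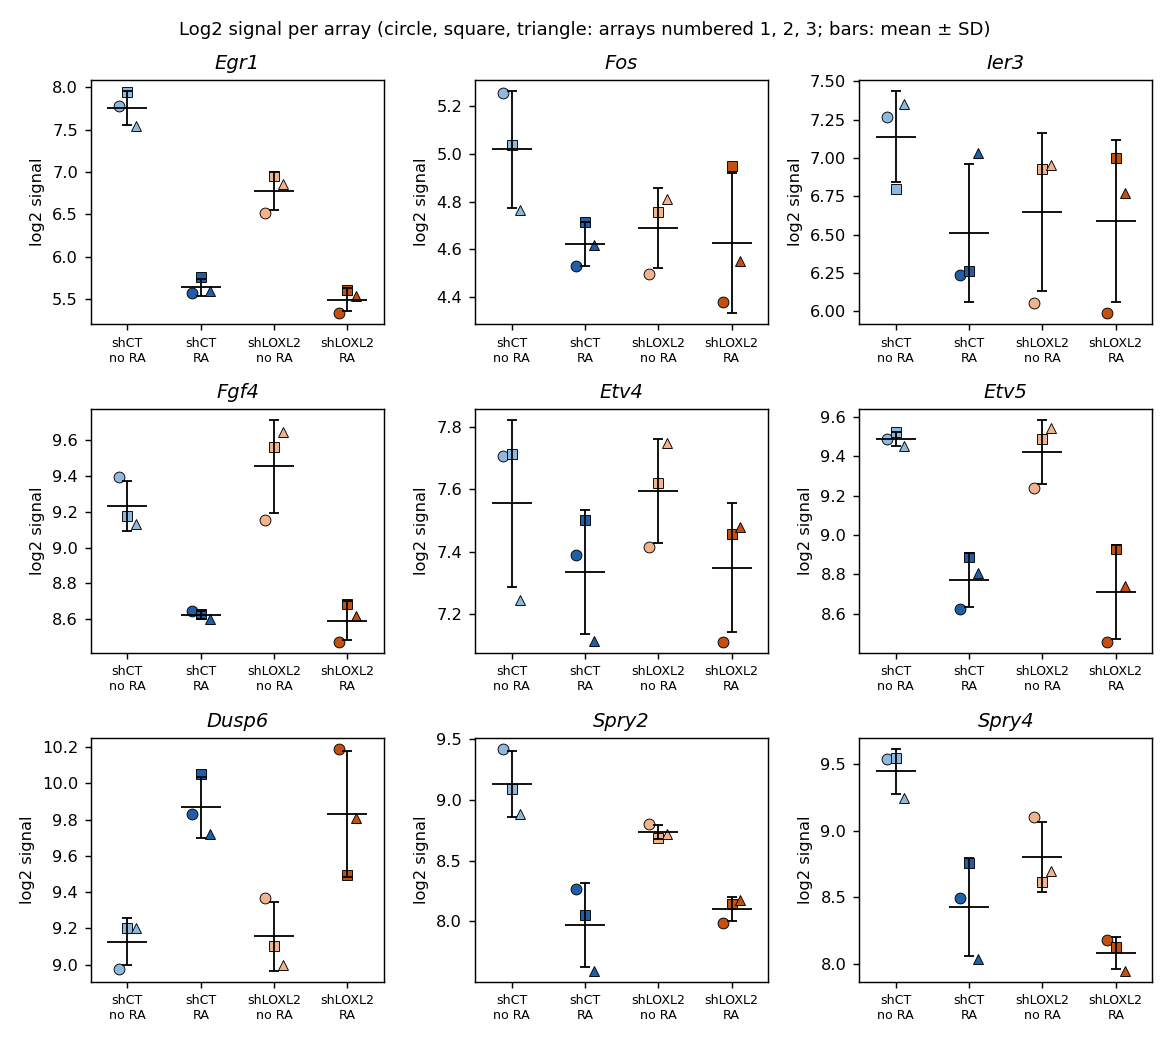
Log2 signal of each of the 9 genes on the 12 arrays, by group (control or LOXL2 hairpin, without or with RA); symbols mark the array number, and bars give the mean ± SD of 3 arrays. The 6 Dusp6 arrays with RA lie above all 6 without RA, while Fgf4, Etv5 and Spry2 run the other way; axes differ between panels and do not start at 0.

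With RA, genes of the set passed the test in both directions. Averaged over both constructs, 5 of the other 8 genes passed the limma threshold, an adjusted p under 0.05 over all 22180 genes. Fgf4, Etv5, Spry2 and Spry4 fell, and Dusp6 rose. Fos, Ier3 and Etv4 did not pass. With blocks of construct and number, Ier3 passed too (-0.34, limma adjusted p = 0.0409), for 6 of the 8, where 16.6% of all genes were called. Among all genes tested, 10.3% were called, 4.8% lower and 5.52% higher, and 22.2% had an unadjusted p under 0.05. Arrays with and without RA did not overlap, over both constructs, for 3 of the 8 lower and 1 higher, against 3.1% and 3.37% of all genes. The count of 5 held in each of the 12 fits that left out 1 array, and also without both shCT arrays numbered 1. Those fits called 7.4% to 11.7% of all genes. The median of the 8 differences was -0.53, against -0.01 over all genes tested.

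Fgf4, the ligand gene, had log2 signals of 9.39, 9.18 and 9.13 in shCT without RA and 8.64, 8.63 and 8.60 with RA. In shLOXL2 they were 9.16, 9.56 and 9.65 without RA and 8.47, 8.68 and 8.62 with RA. Every array with RA lay below every array without RA, in both constructs. The difference was -0.61 ± 0.14 (SE) in shCT (limma adjusted p = 0.0261), -0.86 ± 0.14 in shLOXL2 (0.00317) and -0.74 ± 0.10 on average (0.000283), the last a 1.67-fold lower signal.

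Etv5 stood at 9.49, 9.52 and 9.45 in shCT without RA and at 8.62, 8.89 and 8.81 with RA. In shLOXL2 it stood at 9.24, 9.49 and 9.54 without RA and at 8.46, 8.93 and 8.74 with RA. The fall was nearly equal in both constructs, at -0.71 ± 0.14 in each (limma adjusted p = 0.011 and 0.012). A dimmer second Etv5 cluster had lower means with RA, from 7.16 ± 0.397 (SD, n = 3) to 6.59 ± 0.212 in shCT and from 7.14 ± 0.416 to 6.55 ± 0.210 in shLOXL2. Its arrays with and without RA overlapped in both constructs. With both clusters averaged, Etv5 did not pass in shCT (-0.64, limma adjusted p = 0.0533) or shLOXL2 (-0.65, 0.0560). On average over the constructs Etv5 still passed (-0.65, 0.0034). Its paralogue Etv4 overlapped between groups throughout: 7.71, 7.71 and 7.25 without RA and 7.39, 7.50 and 7.11 with RA in shCT, and 7.42, 7.62 and 7.75 against 7.11, 7.46 and 7.48 in shLOXL2. Its average difference was -0.23 ± 0.12 (95% interval -0.49 to 0.02, limma adjusted p = 0.275). The interval of Etv5, from -0.93 to -0.50, lay below that of Etv4 without overlap, though the difference between the genes was not tested.

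Spry2 and Spry4, the Sprouty genes, had the lowest average differences among the other 8. Spry2 had signals of 9.42, 9.09 and 8.88 in shCT without RA and 8.27, 8.06 and 7.59 with RA. In shLOXL2 it had 8.80, 8.69 and 8.72 without RA and 7.99, 8.14 and 8.18 with RA. Its arrays with and without RA did not overlap, and the difference was -1.16 ± 0.17 in shCT (limma adjusted p = 0.00152), -0.64 ± 0.17 in shLOXL2 (0.0692) and -0.90 ± 0.12 on average (0.000321). Spry4 went from 9.54, 9.54 and 9.25 to 8.49, 8.75 and 8.03 in shCT, and from 9.10, 8.61 and 8.70 to 8.18, 8.13 and 7.95 in shLOXL2. Its difference was -1.02 ± 0.19 in shCT (limma adjusted p = 0.00642), -0.72 ± 0.19 in shLOXL2 (0.0517) and -0.87 ± 0.13 on average (0.000687). Within each construct the Spry4 arrays did not overlap, but the highest shCT array with RA lay above the lower shLOXL2 arrays without RA.

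Dusp6, the ERK phosphatase gene, moved against the others. Its signals were 8.98, 9.20 and 9.20 in shCT without RA and 9.83, 10.05 and 9.72 with RA. In shLOXL2 they were 9.37, 9.10 and 9.0 without RA and 10.19, 9.49 and 9.81 with RA. All 6 arrays with RA lay above all 6 without. The difference was 0.74 ± 0.17 in shCT (limma adjusted p = 0.0283), 0.67 ± 0.17 in shLOXL2 (0.0521) and 0.71 ± 0.12 on average (0.00204), a 1.63-fold higher signal. A second Dusp6 cluster had means from 3.62 to 4.09 in the 4 groups, below the array medians, and stood at 3.90 ± 0.281 without and 3.86 ± 0.135 with RA in shCT (SD, n = 3), where its arrays overlapped. In shLOXL2 it stood at 3.62 ± 0.251 and 4.09 ± 0.189, and its arrays did not overlap. With both clusters averaged, the Dusp6 difference was 0.35 in shCT (limma adjusted p = 0.15) and 0.58 in shLOXL2 (0.0185).

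Fos and Ier3 did not follow Egr1 past the threshold. Fos, the partner of Jun in the AP-1 factor, lay close to the array medians: 5.25, 5.04 and 4.76 in shCT without RA, 4.53, 4.72 and 4.62 with RA, and between 4.38 and 4.95 on the shLOXL2 arrays. Its difference was -0.40 ± 0.17 in shCT (95% interval -0.76 to -0.035, limma adjusted p = 0.252) and -0.06 ± 0.17 in shLOXL2 (0.923). Ier3, an early response gene linked to cell survival, was the most variable of the 9. It read 7.26, 6.80 and 7.35 in shCT without RA against 6.24, 6.26 and 7.03 with RA, and 6.05, 6.93 and 6.96 in shLOXL2 without RA against 5.99, 7.0 and 6.77 with RA. Its difference was -0.63 ± 0.31 in shCT (limma adjusted p = 0.335) and -0.06 ± 0.31 in shLOXL2 (0.962), and the shLOXL2 interval ran from -0.72 to 0.60. With blocks of construct and number the Ier3 difference in shCT passed (limma adjusted p = 0.0230), although the labels state no pairing. It also passed without the 4 arrays low on the within-group axis (-0.78, limma adjusted p = 0.0420). Fos passed in shCT with that axis as a covariate (0.0440) and with array weights (0.0229).

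Within single constructs the calls depended on single arrays. In shCT, 5 of the 8 genes passed with RA, 4 lower and 1 higher, where 4.25% of all genes were called, 2.09% lower and 2.16% higher, and 16.5% had an unadjusted p under 0.05. Arrays did not overlap for 5 of the 8 lower and 1 higher, against 10.5% and 10.7% of all genes. Without replicate 1 or 2 of shCT without RA 3 and 2 passed, and without replicate 1, 2 or 3 of shCT with RA 2, 3 and 3. The share of all genes called fell too, to between 2.18% and 3.55%. Spry2 and Spry4 passed in each of those fits. Fgf4 lost its call without any 1 of those 5 arrays (adjusted p = 0.0737 to 0.0893), as did Dusp6 (0.0511 to 0.128). Etv5 lost it without replicate 2 of shCT without RA (0.0543) or replicate 1 of shCT with RA (0.0637). Without both shCT arrays numbered 1, which were high in primitive endoderm markers, only Spry2 passed, and 1.96% of all genes were called. The differences were then -0.54 for Fgf4, -0.64 for Etv5, 0.68 for Dusp6, -1.16 for Spry2 and -1.0 for Spry4.

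In shLOXL2, 2 of the 8 passed, Fgf4 and Etv5, both lower, where 3.46% of all genes were called, 1.41% lower and 2.05% higher, and 14.4% had an unadjusted p under 0.05. Arrays did not overlap for 4 of the 8 lower and 1 higher, against 9.32% and 10.3% of all genes. The shLOXL2 arrays of equal number deviated together in all 3 pairs, though replicate 3 without RA went more with replicate 2 with RA. With blocks of construct and number, 5 passed: Fgf4, Etv5, Spry2 (limma adjusted p = 0.00835) and Spry4 (0.00796) lower, and Dusp6 (0.0117) higher. That fit called 7.32% of all genes, 2.88% lower and 4.44% higher. Etv5 lost its call without replicate 2 or 3 of shLOXL2 without RA (0.0615 and 0.0624) or replicate 1 with RA (0.0554), which left 1 gene each. Those fits called 2.08% to 2.42% of all genes. Without replicate 1 of shCT without RA 5 passed (4.13% of all genes), and without replicate 3 of shCT with RA 4 (3.08%). These arrays enter the shared estimate of the spread. The count was 3 without replicate 3 of shCT without RA (3.68% of all genes) or replicate 2 with RA (2.92%), where Spry4 joined. It was also 3 without replicate 1 of shLOXL2 without RA (3.62%) or replicate 2 with RA (2.3%), where Dusp6 joined.

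**Figure D2:**
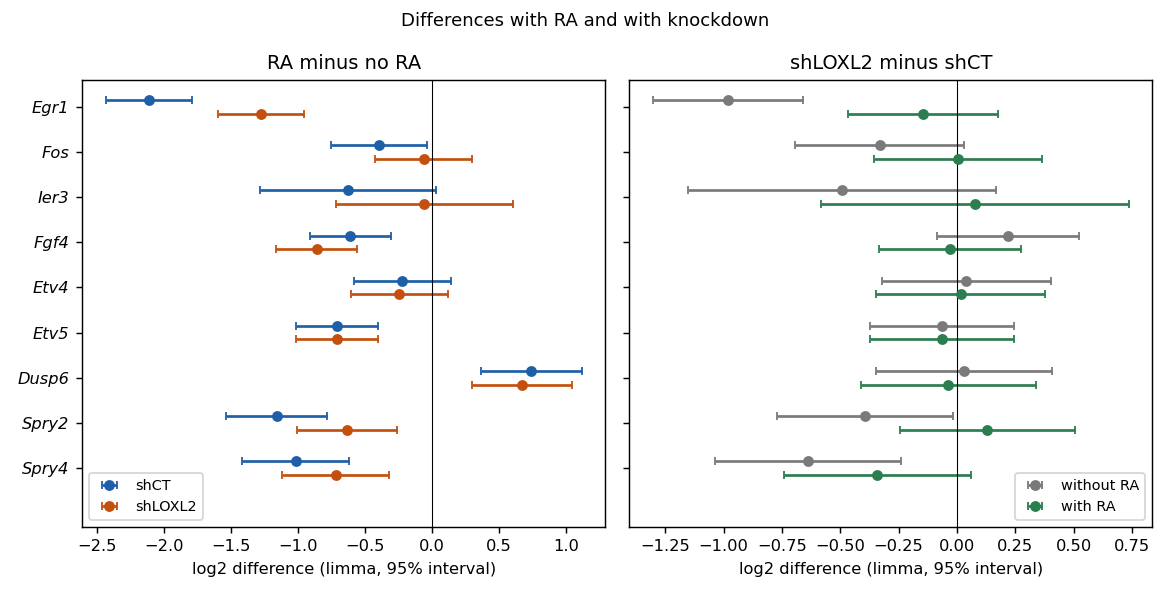
Log2 differences of the 9 genes with their 95% limma intervals: RA minus no RA in each construct (left), and shLOXL2 minus shCT without and with RA (right). Left, the Dusp6 intervals lie above 0 and those of Fgf4, Etv5, Spry2 and Spry4 below 0 in both constructs; right, among genes other than Egr1, only the Spry2 and Spry4 intervals without RA exclude 0, before adjustment over all genes. The Egr1 values are a description, except in knockdown with RA.

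Knockdown without RA was the comparison in which Egr1 had been lower, and no gene passed the threshold there, Egr1 included. Limma called 0 of the 8, and 0% of all genes tested. At an unadjusted p under 0.05 it gave 2 of the 8, Spry4 and Spry2, against 4.68% of all genes. Spry4 was at -0.64 ± 0.19 (95% interval -1.04 to -0.24, limma adjusted p = 0.768), and its shLOXL2 arrays (8.61 to 9.10) lay below its shCT arrays (9.25 to 9.54). Spry2 was at -0.39 ± 0.17 (95% interval -0.77 to -0.02, limma adjusted p = 1), with shLOXL2 arrays from 8.69 to 8.80 below shCT arrays from 8.88 to 9.42. Arrays that did not overlap, with shLOXL2 lower, were found for 4.04% of all genes, and with shLOXL2 higher for 4.2%, and for 0 of the 8. Without both shCT arrays numbered 1, Spry4 stood at -0.59 and Spry2 at -0.25.

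The other 6 genes overlapped between the constructs without RA. Fos stood at -0.33 (95% interval -0.69 to 0.03) and Ier3 at -0.49 (-1.15 to 0.17). Fgf4 stood at 0.22 (-0.08 to 0.52), Etv4 at 0.04 (-0.32 to 0.40), Etv5 at -0.06 (-0.37 to 0.24) and Dusp6 at 0.03 (-0.35 to 0.41).

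With RA, knockdown left every one of the 9 genes overlapping between the constructs. Limma called 0 of the 8, with 0 of the 8 also at an unadjusted p under 0.05 (4.96% of all genes). Arrays that did not overlap were found for 5.88% of all genes lower and 6.61% higher. Spry4 was again the lowest, at -0.34 ± 0.19 (95% interval -0.74 to 0.06). The other 7 of the 8 lay between -0.06 and 0.13. Their intervals have the width seen without RA because the fit gave each gene 1 estimate of the spread over all groups. Averaged over both RA states Spry4 was at -0.49 ± 0.13, 1.40-fold lower (limma adjusted p = 0.308). In that comparison 0 of the 8 were called, against 0.0541% of all genes (0.0361% higher, 0.018% lower), and 1 of the 8 had an unadjusted p under 0.05, against 6.72%. Arrays did not overlap for 0 of the 8, against 0.23% of all genes lower and 0.221% higher. Without the 4 arrays low on the within-group axis, an alternative chosen after seeing the data, Spry4 passed at -0.74 (adjusted p = 0.0421), and 1 of the 8 was called, against 0.167% of all genes. The 95% interval of Spry4 with all arrays ran from -0.77 to -0.21.

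The RA responses of the constructs were compared directly. Limma called 0 of the 8 for a different response and 0% of all genes, with 0 of the 8 at an unadjusted p under 0.05 (2.94% of all genes). The largest differences, shLOXL2 minus shCT, were those of Ier3 at 0.57 ± 0.43 and Spry2 at 0.52 ± 0.25 (95% interval -0.01 to 1.06), followed by Fos at 0.34 ± 0.24, Spry4 at 0.30 ± 0.26 and Fgf4 at -0.25 ± 0.20. Etv4, Etv5 and Dusp6 lay between -0.07 and 0.00035. For Egr1 it was 0.84 ± 0.21, a value that the choice of the gene favoured. Each has a limma adjusted p of 1 where tested. The RA, knockdown and response comparisons share arrays, so their values are not independent of each other.

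The rest of the pathway was read from 5 lists of genes, on the average of both constructs. Of 15 FGF ligand and receptor genes, 2 fell and 3 rose, with a median of 0.02. The ligand genes Fgf17 (-1.35 ± 0.15, limma adjusted p = 5.57e-05) and Fgf15 (-0.54 ± 0.09, 0.00146) fell with Fgf4, while the receptor gene Fgfr2 rose (1.03 ± 0.12, 6.58e-05). Fgfr1 (0.35 ± 0.09) and Fgfr3 (0.43 ± 0.12) rose too; these 2 were picked for the text by their values. With both clusters averaged, the adjusted p of Fgf15 was 0.0684. Of 15 measured genes of the RAS-ERK cascade, 3 rose and none fell, with a median of 0.10: Sos2, a RAS exchange factor (0.93 ± 0.16), Ksr1, a scaffold (0.48 ± 0.11), and Nf1, a RAS inhibitor (0.47 ± 0.12).

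Among 13 other feedback genes, 5 rose and none fell, with a median of 0.18. Dusp9, a relative of Dusp6 that also acts on ERK in the cytoplasm, rose by 1.80 ± 0.13 (limma adjusted p = 1.23e-06), with nearly equal values in shCT (1.80 ± 0.19) and shLOXL2 (1.81 ± 0.19). Dusp5, a nuclear ERK phosphatase, rose by 0.60 ± 0.11 and Spry3 by 0.68 ± 0.12, the reverse of Spry2 and Spry4. The 2 others, picked by their values, were Spred2, a relative of the Sprouty genes (0.38 ± 0.08) and Phlda1 (0.45 ± 0.10). The other 8 did not pass, among them the phosphatase genes Dusp7 (-0.11 ± 0.08) and Dusp4 (-0.09 ± 0.11) and Spry1 (-0.20 ± 0.08), also picked by their values.

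Of 24 measured immediate early genes outside the set, 6 fell and 5 rose, with a median of -0.11. The RNA-binding factor gene Zfp36 fell by 0.83 ± 0.11 (limma adjusted p = 0.000279), Myc by 0.72 ± 0.12 and the nuclear receptor gene Nr4a1 by 0.68 ± 0.08. Picked by their values too, Arc, Ier2 and Junb fell, and Ccn2, Jun, Ccn1, Jund and Klf6 rose, by 0.43 to 0.78. Egr1's relatives Egr2, Egr3 and Egr4 were not called. None of 8 genes for SRF, its cofactors and the EGR cofactors passed, with a median of -0.10. Among all genes 4.8% were called lower and 5.52% higher in this comparison. Calls of Fgfr1, Fgfr3, Nf1, Klf6, Ier2 and Junb were lost when single arrays were left out, with adjusted p-values of up to 0.104, while the differences kept their direction. With knockdown, limma called none of the genes of the 5 lists, in either RA state or on average.

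**Figure D3:**
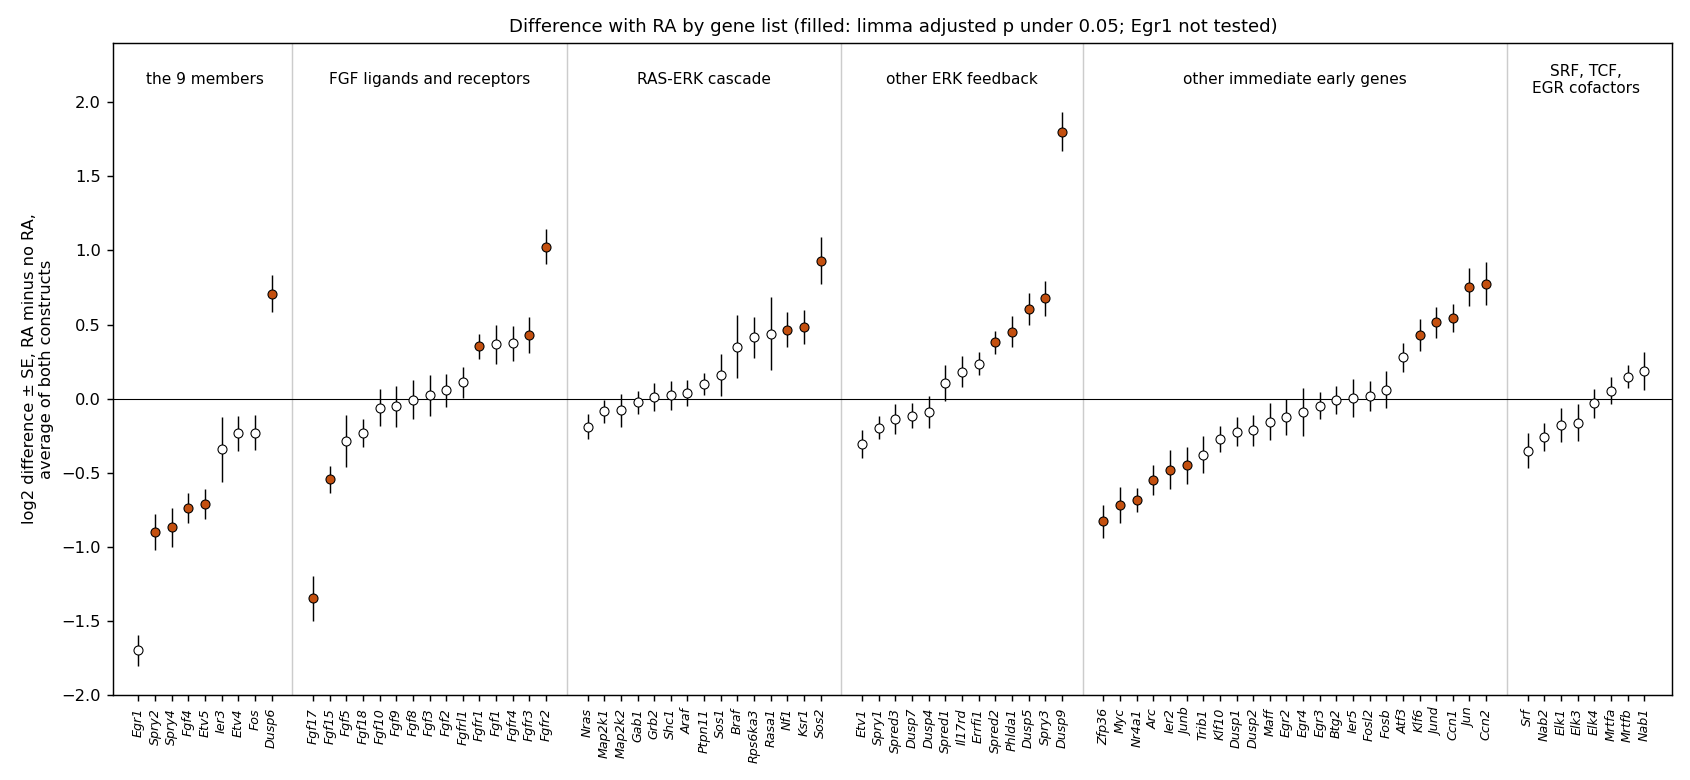
Log2 difference with RA, averaged over both constructs, for the 9 genes and the 5 pathway lists, each point 1 gene with its standard error and filled where the limma adjusted p was under 0.05. Egr1 (-1.70) and Fgf17 (-1.35) lie lowest and Dusp9 (1.80) highest; of the 13 feedback genes outside the set, 5 are filled, all above 0, and 5 lie below 0 unfilled.

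The genes whose pattern was most like that of Egr1 were found by the root mean square difference of gene-centred log2 values over the 12 arrays. The 5 closest outside the set were Ntn1, the guidance factor netrin (0.274), Fgf17 (0.320), the dynein gene Dnah8 (0.321), the lipase gene Liph (0.335) and Hmces (0.347). Ntn1 went from a mean of 7.65 to 6.08 with RA in shCT and from 7.28 to 5.67 in shLOXL2, and Fgf17 from 8.07 to 6.64 and from 7.55 to 6.29. With knockdown without RA all 5 differed less than Egr1 (-0.98). The differences were -0.38 for Ntn1, -0.52 for Fgf17, -0.70 for Dnah8, -0.50 for Liph and -0.12 for Hmces. Within the set, Spry4 (0.506) and Spry2 (0.508) ranked 62 and 63 among 22179 genes by this measure, followed by Etv5 (rank 157) and Fgf4 (261), and Dusp6 was far from it (rank 21710). The list of 5 depends on single arrays. Without replicate 1 of shCT without RA 1 of the 5 remained, without the 4 arrays low on the axis 2, and Ntn1 stayed among the 5 in each of these fits. Closeness says only that the levels ran alike on these arrays.

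Within groups, several of the 9 genes deviated together along the axis of variation. That axis was drawn from all genes, so such deviations need not be particular to the set. The share of all genes that deviated alike was not computed. The 4 arrays lowest on the axis were replicate 3 of both shCT groups and replicate 1 of both shLOXL2 groups. There Egr1, Fos, Fgf4 and Etv4 lay below their group means in 4 of 4 arrays. Etv5 and Spry2 did so in 3 and Spry4 in 2, while Dusp6 lay above its group mean in 3. The mean deviation in these arrays was -0.24 for Etv4, -0.17 for Fos and for Egr1, and 0.13 for Dusp6. Ier3 had the widest deviations, from -0.60 to 0.52, with 0.22 and 0.52 in the 2 low shCT arrays and -0.59 and -0.60 in the 2 low shLOXL2 arrays. Each group holds 1 of the 4 arrays, and without them 5 of the 8 genes passed for RA on average, where 10.9% of all genes were called. With the axis as a covariate 6 passed, Etv4 joining at -0.23 (limma adjusted p = 0.0448), where 20.7% of all genes were called.

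**Figure D4:**
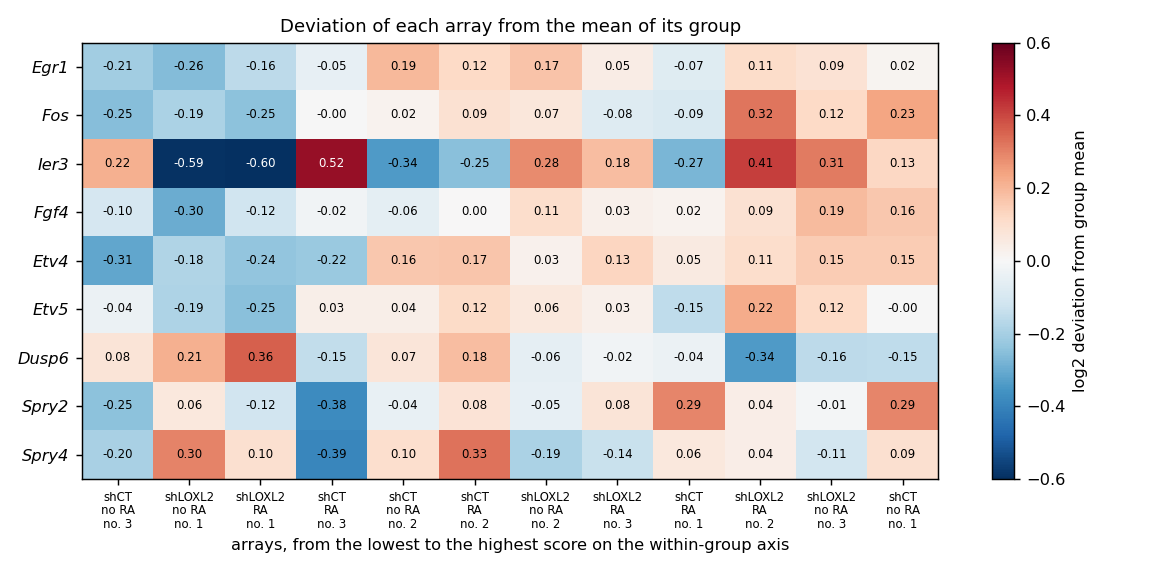
Deviation of each array from the mean of its group on the log2 scale for the 9 genes, with arrays ordered from the lowest to the highest score on the first principal component of within-group variation over all genes; blue is below and red above the group mean. The 4 arrays on the left are low for Egr1, Fos, Fgf4 and Etv4, and Ier3 shows the widest range, from -0.60 to 0.52.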

How the data were processed

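Total RNA of E14 cells had been extracted with Trizol and labelled with an Affymetrix whole-transcript assay, per the labels' protocols. What the authors deposited is a log2 signal for each cluster of probes. The submitters' processing notes list RMA, limma and R 3.1.1 without saying what each did. Values ran from 0.567 to 13.8. Scanner output was not used here, so how background was corrected could not be checked, and signals near the array medians may hold background.

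Clusters with 1 gene in the platform annotation (23521 of 41345) were kept, symbols updated through a RefSeq table (assembly GRCm38.p6), and the brightest cluster taken per gene, which gave 22180 genes. The 9 genes had 11 clusters, none shared with another gene. Tests used limma 3.58.1 in R 4.3.3 (statmod 1.5.0), 1 fit over all 12 arrays with a mean per group, Benjamini-Hochberg adjustment over all genes and a threshold of 0.05. The members, lists and tests were chosen with earlier results of these data known. Promoter motifs were chosen for this description, some after the sequences were seen.

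The rule for named genes took all 9 members, up to 3 genes with the smallest p past the threshold per list and comparison, and the 5 genes closest to Egr1. Replicate numbers come from the labels, which state no pairing. Deviations of same-numbered arrays with and without RA correlated at 0.56, 0.25 and 0.22 in shLOXL2 and at 0.36, 0.04 and 0.63 in shCT. In shCT each array without RA correlated best with its own number, though weakly for number 2. In shLOXL2 replicate 3 without RA correlated more with replicate 2 with RA (0.37) than with its own number. Whether the numbers mark pairs is therefore not settled in either construct. Between constructs the numbers did not pair. Alternatives were the replicate number as a block, blocks of construct and number, a variance trend with robust moderation, a filter on dim genes, a second quantile normalization, median centring, averaged clusters, only the groups compared, array weights, the axis as covariate, leaving out each array and, added after seeing the data, leaving out the 4 arrays low on the axis or both shCT arrays numbered 1.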

Additional observations from a re-analysis of the deposited data

Results flagged for a closer look

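Spry2 had opposite signs of the knockdown difference in the RA states. Every shLOXL2 array without RA lay below the shCT mean, and every shLOXL2 array with RA lay above it. With RA the constructs overlapped, since shCT replicate 1 (8.27) lay above every shLOXL2 array. The sign with RA was not stable: the difference became -0.059 without replicate 3 of shCT with RA. It became -0.00096 without the 4 arrays low on the within-group axis. The knockdown difference was -0.39 ± 0.17 (SE) without RA and 0.13 ± 0.17 with RA, and their difference was 0.52 ± 0.25 on the log2 scale. That difference was tested in the same limma fit and did not pass (adjusted p = 1). With 1 array left out it ran from 0.34 to 0.67. Groups of 3 arrays were not screened for outlying arrays.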

How the results depend on the processing

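The count of 5 of 8 genes for RA on average stayed within 5 to 6 under every alternative run, in fits that called 7.4% to 26.9% of all genes. For RA in shCT the main fit called 4.25% of all genes. The 5 became 3 with the replicate number as a block (replicate block, 3.34% of all genes) and 3 with averaged clusters (4.13%). It became 1 without both shCT arrays numbered 1 (1.96%), and 2 to 5 with 1 array left out (2.18% to 4.73%). It became 6 with array weights (23.6%), the fixed block of construct and number (8.12%) or the axis as covariate (11.2%), and without the 4 arrays low on it (3.63%). For RA in shLOXL2, where the main fit called 3.46%, the 2 became 4 with median centring (3.53%). It became 5 with the variance trend (3.77%), the filter on dim genes (7.7%), array weights (12%) or the axis as covariate (9.97%). It was also 5 with blocks of construct and number, fixed (7.32%) or random (7.55%). It ran from 1 to 5 with 1 array left out (2% to 4.13%). Array weights gave 3 genes for knockdown without RA, Spry4 and Spry2 lower and Fgf4 higher. There 13% of all genes were called, against 0% in the main fit. Replicate 2 of shCT without RA had a weight of 6.26, against 0.332 and 0.479 for the others. In shLOXL2 without RA replicate 2 had 3.08, against 0.390 and 0.763. That comparison thus rested mostly on 1 array per group. Array weights also gave 1 gene for knockdown on average, Spry4, where 4.52% of all genes were called. Leaving out the 4 arrays low on the axis gave 1 for knockdown on average too. The cause was not tested. The replicate block gave 3 for RA in shLOXL2 (2.97% of all genes) and kept the counts of the other 5 comparisons. That block joins equal numbers across the constructs, where they did not pair.

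Small differences that were not called changed sign. Without RA, knockdown values became -0.059 (array weights) and -0.027 (without the 4 arrays) for Etv4, 0.010 (without the 4 arrays) for Etv5, and for Dusp6 -0.13 (averaged clusters), -0.082 (array weights), -0.038 (without the 4 arrays) and -0.045 (without both shCT arrays numbered 1). With RA they became -0.041 for Fos and -0.060 for Ier3 without both shCT arrays numbered 1. Fgf4 became 0.011 (median centring) and 0.016 (without the 4 arrays), Etv4 -0.050 (quantile normalization), Etv5 0.079 and Spry2 -0.00096 (without the 4 arrays), and Dusp6 0.0054 (median centring) and 0.097 (averaged clusters). For the difference of RA responses Etv4 became 0.028 (median centring), 0.099 (array weights) and 0.050 (without the 4 arrays), Etv5 -0.057 (quantile normalization), -0.012 (averaged clusters) and -0.075 (without both shCT arrays numbered 1), and Dusp6 0.22 (averaged clusters).

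With 1 array left out, the knockdown difference without RA ran from -0.12 to 0.13 for Etv4, -0.13 to 0.028 for Etv5 and -0.076 to 0.11 for Dusp6. With RA it ran from -0.16 to 0.13 for Fos, -0.13 to 0.38 for Ier3, -0.077 to 0.027 for Fgf4, -0.096 to 0.13 for Etv4, -0.17 to 0.061 for Etv5, -0.22 to 0.13 for Dusp6 and -0.059 to 0.28 for Spry2. The RA difference in shLOXL2 ran from -0.22 to 0.063 for Fos and -0.35 to 0.24 for Ier3. The difference of RA responses ran from -0.14 to 0.13 for Etv4, -0.11 to 0.13 for Etv5 and -0.25 to 0.10 for Dusp6. Of 2561 values of single genes under these alternatives, 2250 kept direction and side of the threshold, 205 lost and 46 gained a call, and 60 changed sign. Median centring moved the median RA difference of all genes in shCT to -0.10. The number of arrays limits the precision, and signals near the array medians, as of Fos, may understate differences.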
